A study of Mus musculus with 8 samples.

Results

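The comparison described here is that of 2 arrays of an Hprt knockout mouse embryonic stem cell line with 2 arrays of a wild-type embryonic stem cell line, out of 8 arrays in all. The members are these 4 arrays, chosen by their titles, and every gene with a probe set on the array, with 1 probe set per gene (that with the highest mean over the 8 arrays). Of 18193 genes with a probe set, 13819 exceeded the filter level (the 40th percentile of the array's probe sets, at a mean log2 signal of 5.35) on at least 2 arrays and were tested. Genes were then separated into a fibroblast side (collagens, matrix, contractile, inflammatory and interferon-response genes) and a stem side (pluripotency and early lineage genes) by gene lists.

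The knockout line has the genotype HPRT -/- and the other line is labelled wild-type. The other 4 arrays come from a Gtf2i gene trap line derived from AB2.2 cells, with the genotype HPRT -/-:GTF2I +/-, and from a gene-targeted R1 line that carries Δexon2/+ in Gtf2i. Every line was grown in medium with serum replacement and LIF on a layer of feeder cells, and total RNA was hybridised to Affymetrix arrays. The parental lines of the Hprt knockout and of the wild-type cells are not named in the labels, so a difference between lines, between cultures and by the Hprt genotype cannot be told apart. The labels call the 2 arrays of a line biological replicates without naming separate cultures, so p-values measure the spread between these arrays.

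Mouse embryonic stem cells come from the inner cell mass of the blastocyst and keep their undifferentiated state through a network around the transcription factors Oct4 (gene Pou5f1), Sox2 and Nanog, with LIF as an external signal. They are commonly cultured on feeder fibroblasts, whose RNA is extracted together with theirs unless the layers are separated. Hprt, an X-linked gene, encodes hypoxanthine-guanine phosphoribosyltransferase, which returns free hypoxanthine and guanine to the nucleotide pool. Cells without it depend more on de novo purine synthesis, and Hprt-deficient embryonic stem cells have long served as selectable lines for gene targeting.

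Pairs of arrays of the same line correlated at 0.997 to 0.998 over the tested genes. The arrays of the knockout and the wild-type line correlated at 0.866, below the 0.978 to 0.979 between wild-type and trap line and the 0.967 to 0.969 between wild-type and exon 2 mutant. The knockout correlated with the trap line at 0.888 to 0.889 and with the exon 2 mutant at 0.918 to 0.920. The knockout arrays therefore stood apart from the other 6 arrays, and the range of the median log2 signal per array, 5.96 to 6.02, was narrow, with the knockout arrays lowest (5.96 on both) and the trap line next (5.98 on both).

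Genes typical of fibroblasts were far lower in the Hprt knockout than in the wild-type line, and junction, primed epiblast and several neurogenic genes were higher. Of 13819 tested genes, 9876 (71.5%) differed at an adjusted p under 0.05 in limma's moderated test with Benjamini-Hochberg adjustment, n = 2 against 2 arrays. The knockout was higher for 6409 genes (46.4%) and lower for 3467 (25.1%). These shares are the background for the counts of each gene list below. At a difference of at least 2-fold the order was the other way round, with 1161 genes higher (8.4%) and 1499 lower (10.8%). At 4-fold or more 109 genes were higher and 739 lower, and at 16-fold or more 2 were higher and 170 lower. The large differences were thus mostly falls in the knockout. The median difference of all tested genes was 0.16 on the log2 scale. Cyclic loess scaling moved it to 0.0043 and split the calls into 4709 higher and 4729 lower, with 731 genes at least 2-fold higher and 1762 lower, so the balance of higher and lower calls depends on the scaling. Falls outnumbered rises at 2-fold under both scalings. For this reason medians of gene lists are given relative to the median of all tested genes, while single genes have their measured log2 difference, knockout minus wild-type, with its standard error.

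**Figure D1:**
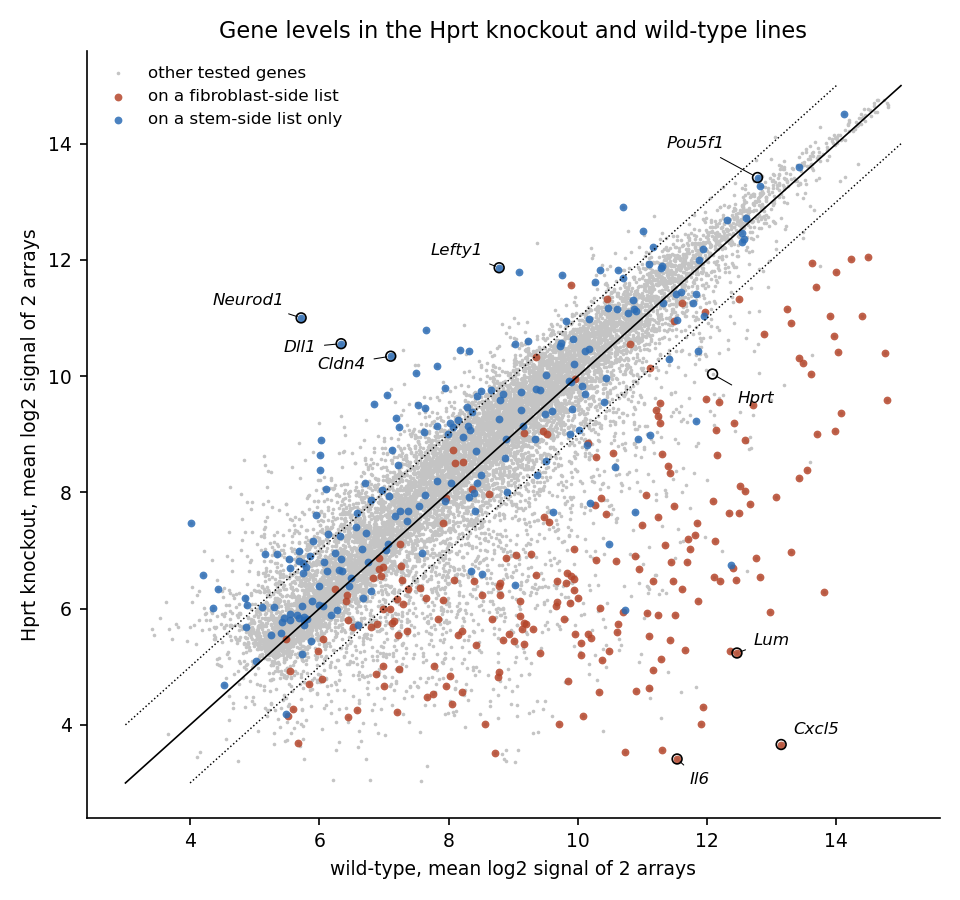
Mean log2 signal of the 2 wild-type arrays (x axis) against that of the 2 Hprt knockout arrays (y axis) for each tested gene; the solid line marks equal levels, the dotted lines a 2-fold difference, and rings the labelled genes. Genes on fibroblast-side lists lie mostly below the lower dotted line, down to Cxcl5 at -9.48. Genes on stem-side lists only lie on both sides of the diagonal, from Inhba at -5.63 to Neurod1 at 5.28.

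The targeted gene was lower in the knockout, which is labelled HPRT -/-. Hprt was at 12.09 and 12.08 on the wild-type arrays and at 10.05 and 10.02 on the knockout arrays, a difference of -2.05 ± 0.05 (adjusted p = 6.19e-08). It was at 10.76 and 10.72 in the trap line, also HPRT -/-, and at 12.25 on both arrays of the exon 2 mutant, so the 2 mutant lines lay below both intact lines without overlap. The signal in the knockout stayed above the filter level, and the position of the probes relative to the mutation was not analysed here. Gtf2i, the gene altered in the other lines and encoding the transcription factor TFII-I, is not listed as mutated in either line compared. It was at 10.10 and 10.14 in the wild-type and 10.92 and 10.89 in the knockout, higher by 0.78 ± 0.05 (adjusted p = 9.65e-06), and its 2 probe sets above the filter were higher by 0.78 and 1.34.

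The feeder markers, a list of 24 fibroblast genes, separated the knockout from every other line. Like the other lists, it was chosen with earlier results of these data known. Of 23 represented and tested, 23 were lower in the knockout than in the wild-type, by 1.90 to 7.23 in log2 size, with a median of -4.86 relative to all genes. Their mean log2 level was 11.88 and 11.91 on the wild-type arrays, 7.28 and 7.30 on the knockout arrays, 11.47 on both trap line arrays and 11.34 and 11.36 on those of the exon 2 mutant. The knockout arrays lay about 4 log2 units below the other 6 with no overlap. Lumican (Lum), a collagen-binding proteoglycan, was at 12.45 and 12.47 in the wild-type and 5.21 and 5.26 in the knockout. Type III collagen (Col3a1) fell from 14.77 and 14.81 to 9.60 and 9.58, and the surface glycoprotein Thy1 from 10.60 and 10.59 to 6.80 and 6.83. Only Lum and Vcam1 were below the filter level in the knockout, but that level is a percentile of the array and not a limit of detection. Prrx1 (5.92 and 5.93) and Twist2 (5.78 and 5.53) were above it, yet below the knockout arrays' median signal of 5.96. In bulk RNA, fewer cells of a type and less RNA per cell cannot be told apart, and how far feeder RNA sets any other difference between these lines was not tested.

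**Figure D2:**
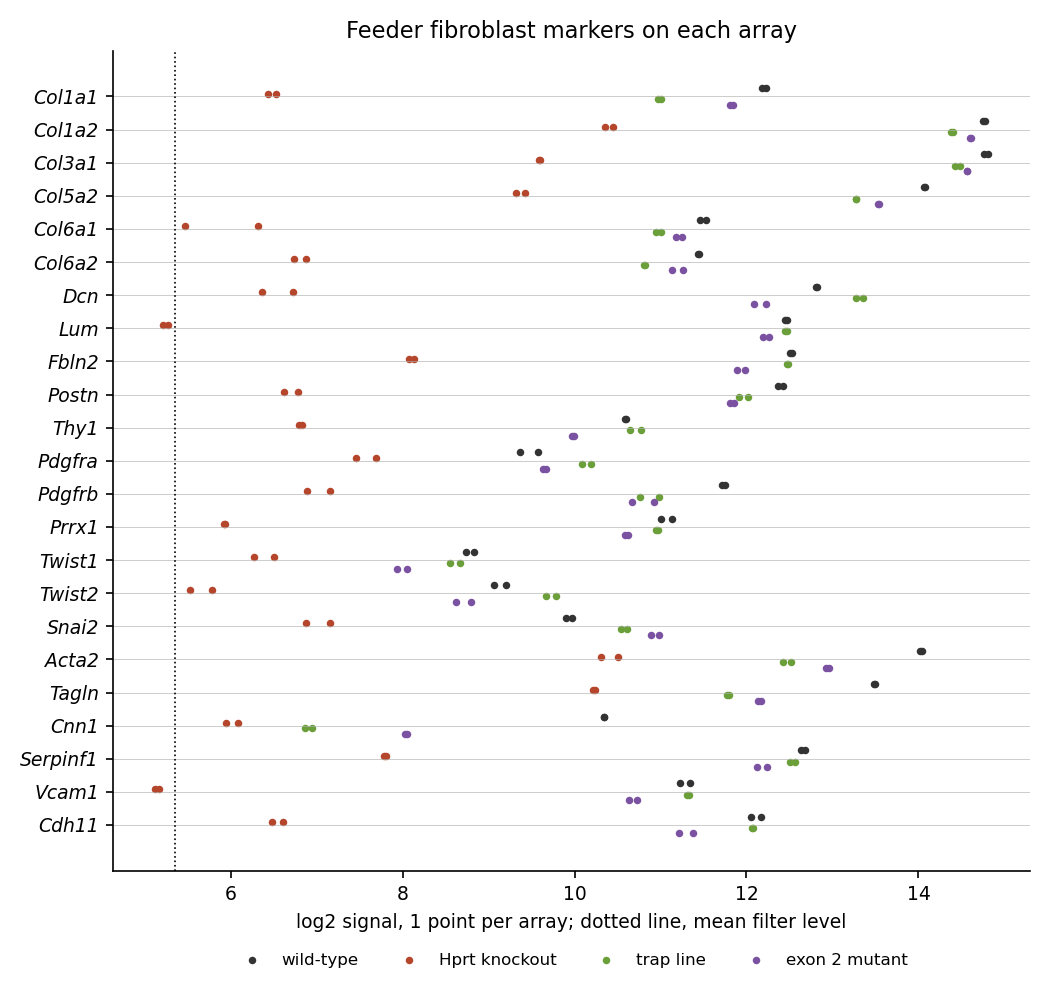
Log2 signal of the 23 tested feeder fibroblast markers (y axis) on each of the 8 arrays (1 point per array, coloured by line); the dotted line is the mean filter level of 5.35. For each marker the 2 knockout points lie to the left of those of the other 3 lines, with Lum and Vcam1 left of the dotted line.

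Stem cell markers moved by far less. Of 16 markers tested, 12 rose, 3 fell and 1 did not pass, with a median of 0.35 relative to all genes. Pou5f1 was at 12.74 and 12.82 in the wild-type and 13.46 and 13.38 in the knockout, a rise of 0.64 ± 0.06 (adjusted p = 4.99e-05). Sox2 rose by 0.39 and the transcriptional coactivator gene Utf1 by 1.48. Fgf4, a growth factor gene controlled by Oct4 and Sox2, rose most in this list, by 1.98 ± 0.05, from 9.78 and 9.74 to 11.74 on both arrays. The 3 markers that fell were Nanog (-0.23), Zfp42 (-0.21) and Tfcp2l1 (-0.42), and Klf4 stood at -0.10 (adjusted p = 0.10). Both lines thus carried stem cell markers at high signal. The calls of Nanog, Tfcp2l1 and Esrrb (0.26) were lost in 1 or more other settings.

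On the fibroblast side as a whole, 225 of 235 genes on the array were tested, of which 210 fell, 6 rose and 9 did not pass, with a median of -3.36 relative to all genes. Of these 225, 43 were below the filter level in the knockout and entered the test through other lines, which favours a call for them. The 6 that rose were Mdk, Icam1, Ifitm1, Mmp11, Igfbp5 and Eng. On the stem side 213 of 239 genes were tested, of which 128 rose, 49 fell and 36 did not pass, with a median of 0.21. Among the 100 largest falls 50 were on a fibroblast-side list, 2 on a stem-side list only, 1 on another list and 47 on none. Among the 100 largest rises none was on a fibroblast-side list, 19 were on a stem-side list, 3 on another list and 78 on none. Of all 13819 tested genes, 225 were on a fibroblast-side list and 213 on a stem-side list. The lists were chosen with earlier results of these data known, so these counts are a description and not a test. In 50 of the 100 largest falls the knockout, and in 42 of the 100 largest rises the wild-type, was below the filter level, so those folds depend on the array background. Over all 13819 tested genes the knockout was below it for 490 and the wild-type for 540.

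**Figure D3:**
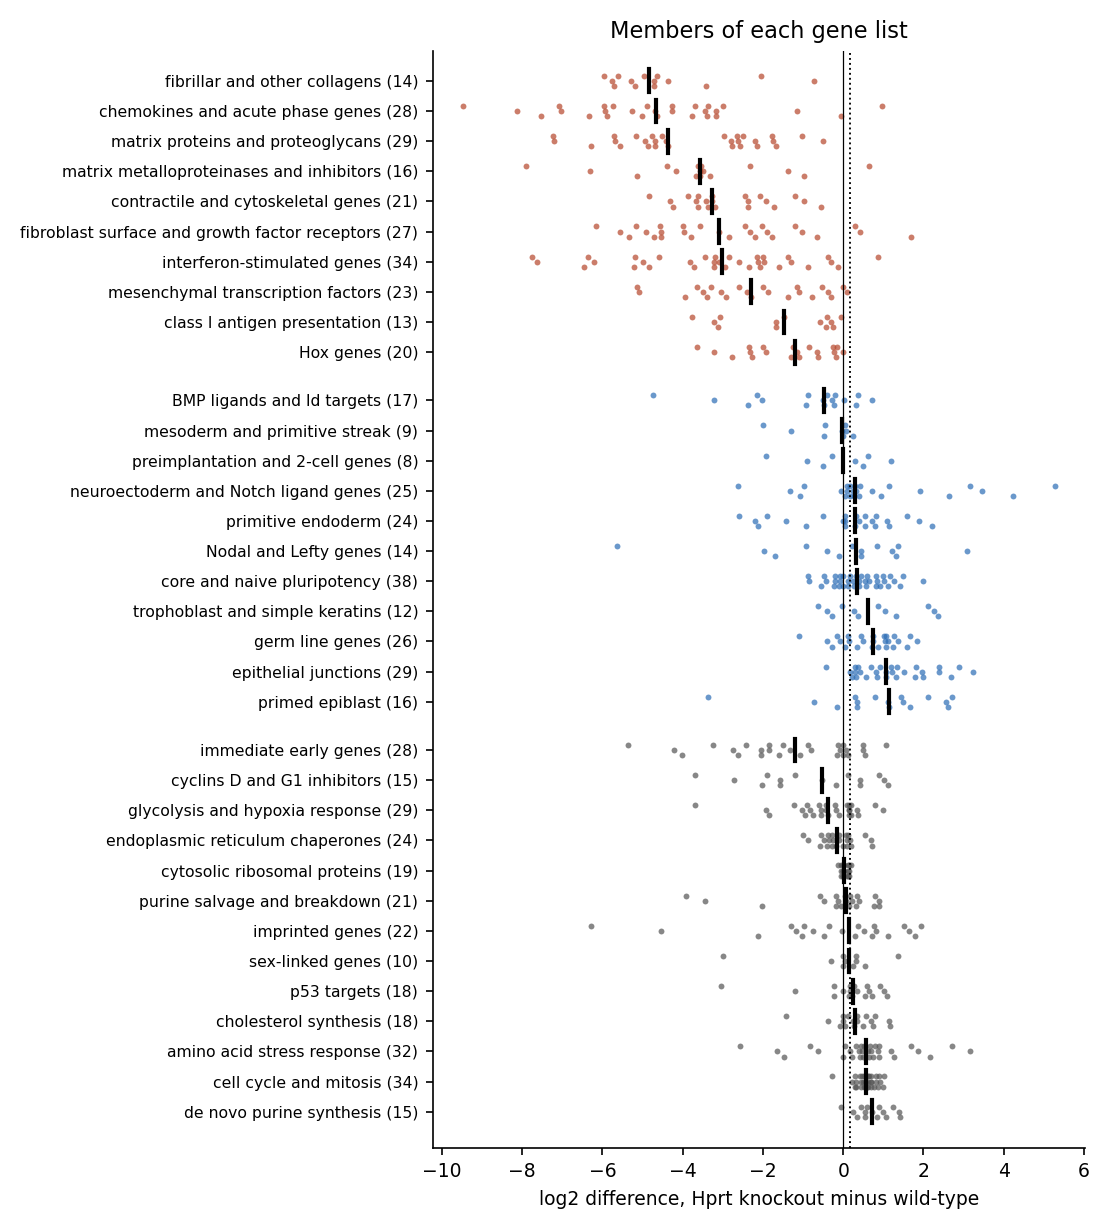
Log2 difference, knockout minus wild-type, of each tested member (points) of the fibroblast-side (red), stem-side (blue) and process lists (grey), with the number tested in brackets; the bar is the list's median and the dotted line the median of all tested genes, 0.16. The red lists lie to the left, from a median of -4.83 for collagens to -1.20 for Hox genes, while the blue lists spread on both sides of 0.

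Structural matrix genes were lower throughout. Of 14 collagen genes tested 14 fell (median -4.99), with Col12a1 at -5.96, Col11a1 at -5.76 and Col1a1 at -5.72 ± 0.06, and with Col15a1 as the smallest at -0.72. Col1a1, which encodes the main chain of type I collagen, went from 12.18 and 12.22 to 6.43 and 6.53. Of 29 matrix proteins and proteoglycans 29 fell (median -4.53, or -2.93 with the mean of a gene's probe sets). Among them were Lum (-7.23), Ogn (-7.20), decorin (Dcn, -6.27) and periostin (Postn, -5.70). Across the alternative settings Dcn ranged from -6.49 to -3.36, Col12a1 from -6.22 to -2.27 and Col3a1 from -7.25 to -5.18. Fibronectin (Fn1, -1.68), elastin (Eln, -1.04) and Fbln1 (-0.51) fell least. Proteases that cut this matrix and their inhibitors fell in 15 of 16 cases (median -3.73). The collagenase gene Mmp13 went from 11.83 and 11.98 to 4.32 and 3.70 (-7.90 ± 0.19), the stromelysin gene Mmp3 fell by 6.31, and the inhibitor gene Timp2 by 5.15. Mmp11 rose by 0.65.

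Regulators of mesenchymal identity followed the matrix genes. Of 23 mesenchymal transcription factor genes 20 fell and none rose (median -2.45), led by Prrx1 (-5.14), Zic1 (-5.10), Foxc2 (-3.94) and Prrx2 (-3.65). Twist1 (-2.40), Snai2 (-2.92) and Zeb1 (-1.87), which repress epithelial genes, were among them, and Foxf1, Tbx3 and Tbx5 did not pass. Of 20 Hox genes, which give positional identity along the body axis, 17 fell (median -1.37), with Hoxc8 at -3.65, Hoxb3 at -3.23 and Hoxa9 at -2.76. In the knockout 9 of these 20 were below the filter level.

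Surface proteins and growth factor receptors fell in 24 of 27 cases (median -3.25). The adhesion molecule gene Vcam1 (-6.15), the cadherin gene Cdh11 (-5.57), Ptn (-5.34), Igfbp7 (-5.17) and the hyaluronan receptor gene Cd44 (-4.90) changed most. The receptor gene Pdgfrb fell by 4.71 and Pdgfra, which primitive endoderm also expresses, by 1.90. Midkine (Mdk), a heparin-binding growth factor abundant in the early embryo, rose by 1.68 ± 0.07, from 9.81 and 9.97 to 11.58 and 11.56. Igfbp5 (0.41) and Eng (0.30) rose too. After cyclic loess scaling 1 gene of the list rose in place of 3. Contractile and cytoskeletal genes fell in 21 of 21 cases (median -3.42). Smooth muscle actin (Acta2) went from 14.04 and 14.02 to 10.31 and 10.51, the calponin gene Cnn1 fell by 4.32 and caveolin (Cav1) by 4.84. These genes were also lower in the other mutant lines than in the wild-type, with raw medians of -1.25 in the trap line and -1.13 in the exon 2 mutant.

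Inflammatory genes gave the largest single falls. Of 28 chemokine and acute phase genes 26 fell, Icam1 rose (0.98) and Cxcl16 did not pass (median -4.84). The neutrophil chemokine gene Cxcl5 was at 13.15 and 13.14 in the wild-type and 3.78 and 3.55 in the knockout (-9.48 ± 0.08, adjusted p = 4.05e-09). Il6 was at 11.52 and 11.56 against 3.60 and 3.22 (-8.12 ± 0.11), and the acute phase gene Saa3 at 13.81 on both against 6.08 and 6.49 (-7.52 ± 0.12). Ptgs2, which makes prostaglandin precursors, fell by 7.08 and the monocyte chemokine gene Ccl2 by 7.04. Cxcl5 was at 12.51 and 12.53 in the trap line and at 12.87 and 12.74 in the exon 2 mutant, so its low level was seen in the knockout arrays alone among these 8. Lif, which encodes the cytokine that holds mouse stem cells undifferentiated, was lower by 3.45. In this list 10 of 28 genes were below the filter level in the knockout.

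Interferon-stimulated genes were lower as a group, with 32 of 34 falling, Ifitm1 rising (0.86) and Irf1 not passing (median -3.18). Ifit1, an antiviral RNA-binding protein gene, was at 11.36 and 11.25 in the wild-type and 3.49 and 3.63 in the knockout (-7.74 ± 0.07). Usp18, which removes the ubiquitin-like modifier ISG15, fell by 7.64, Iigp1 by 6.46 and Ifit3 by 6.37. The class I antigen presentation genes fell in 12 of 13 cases (median -1.63), with Psmb8 at -3.77, H2-D1 at -3.21, B2m at -3.12 and H2-K1 at -3.07. Feeder markers moved with both groups in the same arrays, at -4.86 relative to all genes, and their part in these falls was not tested. Interferon signalling acts on a short promoter element, of which the letters GAAANNGAA are a common core. The 250 bases upstream of the start, in RefSeq's GRCm38.p6 promoter table, held this core on either strand in 13 of 32 promoters of the list (40.6%), which belong to 26 matched genes, against 7.13% of 32851 promoters in the table. The promoters of 4 of the genes with large falls are shown around the core, with its letters, read on either strand (TTCNNTTTC on the opposite strand), in capitals.
Ifit1, chr19:34640750-34640843, plus strand: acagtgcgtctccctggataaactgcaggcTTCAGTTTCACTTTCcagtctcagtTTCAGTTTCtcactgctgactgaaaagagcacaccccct
Ifit3, chr19:34583344-34583465, plus strand: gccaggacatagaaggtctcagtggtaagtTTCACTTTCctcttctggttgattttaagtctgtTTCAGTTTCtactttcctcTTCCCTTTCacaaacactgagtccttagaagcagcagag
Irgm1, chr11:48871421-48871480, minus strand: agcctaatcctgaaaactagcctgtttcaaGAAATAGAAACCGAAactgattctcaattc
Gbp3, chr3:142559970-142560043, plus strand: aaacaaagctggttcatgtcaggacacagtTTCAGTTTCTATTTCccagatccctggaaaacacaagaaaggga
Ifit1 and Ifit3 held 3 matches each and Irgm1 and Gbp3 2 each, some of which overlap. Of these genes, Irgm1 fell by 4.99 and Gbp3 by 5.20. The core was also present upstream of Stat2 and Trim25, which fell by 0.31 and 0.37, so the presence of a match did not go with 1 size of difference.

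Among the 15 largest falls, Ifi202b, Fgf7, Ereg, Rspo2 and Ptx3 stood on no list. Fgf7, a fibroblast growth factor that acts on epithelia, was at 11.27 and 11.32 against 4.03 and 4.19 (-7.18 ± 0.07), and the EGF-family ligand gene Ereg at 11.62 and 11.59 against 4.51 and 4.61 (-7.04 ± 0.08). The Wnt enhancer gene Rspo2 was lower by 6.67 with the probe set used and by 0.15 with its other probe set above the filter. In 13 of the 15 genes the knockout was below the filter level.

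The pluripotency network as a whole shifted little. Of 38 core and naive pluripotency genes 24 rose, 8 fell and 6 did not pass (median 0.19 relative to all genes), beside 46.4% higher and 25.1% lower over all genes. After cyclic loess scaling 19 rose and 13 fell. The rises were led by Fgf4 (1.98), Utf1 (1.48), Prdm14 (1.43) and Dppa3 (1.26), and the falls by the nuclear receptor gene Nr5a2 (-0.88), Stat3 (-0.85), which carries the LIF signal, and Klf5 (-0.56). Against the trap line 17 of these genes were higher in the knockout and 13 lower, and against the exon 2 mutant 15 and 13. The background of calls in these comparisons was 41.8% higher and 26.6% lower for knockout against trap line, and 36.3% and 24.9% for knockout against exon 2 mutant. The counts of pluripotency genes in both directions were near these backgrounds.

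Genes of the primed, post-implantation epiblast rose more. Of 16 tested, 13 rose, 2 fell and 1 did not pass (median 0.97). The de novo DNA methyltransferase gene Dnmt3a was at 9.06 and 9.13 in the wild-type and 11.85 and 11.75 in the knockout (2.70 ± 0.06, adjusted p = 4.03e-08), and Dnmt3b rose by 1.49. Dnmt3a was at 9.18 and 9.23 in the trap line and 9.41 and 9.40 in the exon 2 mutant, so its high level was seen in the knockout among these 4 lines. The kinase gene Pim2 rose by 2.62 and the POU factor gene Pou3f1 by 2.11. Otx2, a transcription factor of the anterior epiblast, rose from 7.41 and 7.57 to 10.09 and 10.04 (2.57 ± 0.08), but was at 10.47 and 10.54 in the exon 2 mutant, above the knockout. Fst, an activin antagonist that fibroblasts also express, fell by 3.36, and Foxd3 by 0.72. Fgf5, often used to mark the primed state, rose by 0.34. Feeder markers were lower in the same arrays, and their part in these rises was not tested.

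Genes of the Nodal and BMP families moved in both directions. Lefty1, a secreted Nodal antagonist and target, was at 8.79 and 8.78 in the wild-type and 11.83 and 11.90 in the knockout (3.08 ± 0.05), and was at 11.82 and 11.88 in the exon 2 mutant. Nodal itself rose by 1.37, its receptor gene Acvr2b by 1.32 and its transcription partner gene Foxh1 by 1.22. Inhba, the activin A subunit gene, fell by 5.63 ± 0.10, from 12.42 and 12.32 to 6.84 and 6.65, and Inhbb by 1.96. Across the alternative settings Inhba ranged from -5.88 to -2.65. Of the 14 Nodal and activin genes tested 8 rose and 5 fell (median 0.17), beside 46.4% higher and 25.1% lower over all genes. Of 17 BMP ligands, receptors, antagonists and Id targets 3 rose and 11 fell (median -0.63). The antagonist gene Grem1 fell by 4.75, Id3 by 3.22, Bmp4 by 2.37 and Id1 by 2.14. Id1 was lower still in the exon 2 mutant, at 7.85 and 7.86 against 8.44 and 8.42 in the knockout.

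Epithelial junction genes rose almost without exception. Of 29 tested, 27 rose, Ctnnd1 fell (-0.43) and Marveld2 did not pass (median 0.90). After cyclic loess scaling 22 rose and 1 fell. The tight junction gene Cldn4 was at 6.99 and 7.22 in the wild-type and 10.41 and 10.28 in the knockout (3.24 ± 0.10, adjusted p = 1.99e-07), and Cldn7 and Cldn6 rose by 2.88 and 2.68. The splicing factor gene Esrp1, which sets epithelial exons, rose by 2.38, desmoplakin (Dsp) by 1.98, E-cadherin (Cdh1) by 1.21 and Epcam by 1.06. For E-cadherin the 2 knockout arrays read 11.85 and 11.80 and the wild-type arrays 10.58 and 10.65, and the exon 2 mutant, at 11.61 and 11.48, lay nearer the knockout. In the wild-type 4 of the 29 genes were below the filter level.

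Markers of extraembryonic lineages did not move as blocks. Of 12 trophoblast and simple keratin genes 7 rose and 2 fell (median 0.45, ranging from 0.094 with no filter to 0.97 with a filter at the 60th percentile), with Krt8 at 2.36, Tfap2c at 2.27 and Krt18 at 2.11. The trophoblast regulators Eomes (-0.02) and Hand1 (0.27) did not pass, and Gata2 fell by 0.64. Of 24 primitive endoderm genes 13 rose, 7 fell and 4 did not pass (median 0.14, of opposite sign with a filter at the 60th percentile). Over all genes 46.4% were higher and 25.1% lower, so the primitive endoderm counts were near the background. Apoe rose by 2.22, and the endocytic receptor genes Lrp2 and Cubn by 1.89 and 1.60. The transcription factor genes Gata6 (0.31), Gata4 (0.39) and Sox17 (0.72) rose less. The 7 that fell included the basement membrane genes Nid1 (-2.61), Col4a2 (-2.12) and Col4a1 (-1.42), and Sparc and Pdgfra, which also stand on fibroblast-side lists. Of 9 mesoderm and streak genes none rose and Snai1, Hand2 and Kdr fell.

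Neurogenic genes held the largest rises of the whole comparison. Neurod1, a proneural transcription factor gene, was at 5.78 and 5.66 in the wild-type and at 11.007 and 10.999 in the knockout (5.28 ± 0.07, adjusted p = 5.91e-09), and its 2 probe sets rose by 5.15 and 5.28. It was at 8.12 and 8.17 in the trap line and 7.27 and 7.14 in the exon 2 mutant, between the 2 lines compared. The Notch ligand gene Dll1 was at 6.61 and 6.06 against 10.57 and 10.55 (4.22 ± 0.16), with Dll3 at 2.63. Insm1, a zinc finger repressor of neuroendocrine cells, rose by 3.45 and Hes6, an inhibitor of Hes1 activity, by 3.16. Insm1 was below the filter level in every other line and entered the test through the knockout arrays alone, which favours its call. Of 25 neuroectoderm and Notch genes 13 rose, 4 fell and 8 did not pass (median 0.14), and 7 rose and 3 fell by at least 2-fold, so the members spread to both sides. The background over all genes was 46.4% higher and 25.1% lower, and 8.4% and 10.8% at 2-fold. Sox1 rose by 1.91, whereas Pax6 (0.32), Neurog1 (0.16) and Hes5 (0.24) did not pass, and Nefm (-2.63), Nefl, Nes and Jag1 fell.

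**Figure D4:**
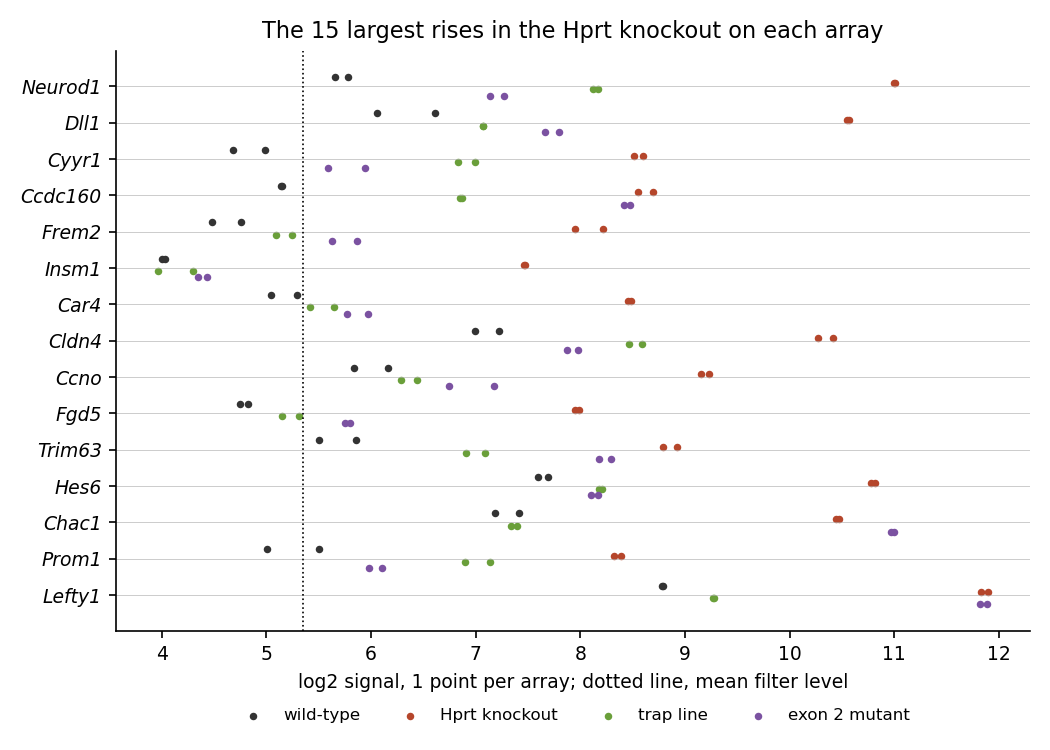
Log2 signal on each of the 8 arrays (1 point per array, coloured by line) of the 15 genes with the largest rises in the knockout; the dotted line is the mean filter level of 5.35. The knockout points lie right of the wild-type points in all 15 genes, while the exon 2 mutant points lie at or beyond those of the knockout for Chac1 and Lefty1 and close to them for Ccdc160.

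The 15 largest rises ran from 3.08 to 5.28. Beside the genes described above they held Cyyr1 (3.72), Ccdc160 (3.48), the basement membrane gene Frem2 (3.47), the carbonic anhydrase gene Car4 (3.30), Ccno (3.19), Fgd5 (3.18), Trim63 (3.17) and Prom1 (3.10). Ccdc160 was at 8.69 and 8.55 in the knockout and 8.48 and 8.42 in the exon 2 mutant, against 5.15 and 5.14 in the wild-type. In 6 of the 15 genes the wild-type arrays were below the filter level. Of the 32 genes made up by Hprt, Gtf2i and the 30 largest differences, 9 had several probe sets above the filter, and in 9 of these 9 the probe sets agreed in sign.

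Of 26 germ line genes that stem cells also express 18 rose and 3 fell (median 0.58), and 5 fell after cyclic loess scaling. Mael, which protects the germ line from transposons, rose by 1.85, the cohesin gene Rec8 by 1.67 and Ddx4 by 1.59, while Dazl fell by 1.11. Of 8 preimplantation genes 4 rose and 4 fell. Pramel7 fell by 1.92, from 8.37 and 8.66 to 6.65 and 6.52, and was at 6.87 and 7.08 in the trap line and 6.34 and 6.41 in the exon 2 mutant, so the wild-type arrays were the high ones.

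Genes of de novo purine synthesis were higher in the knockout as a group. Of 15 de novo synthesis genes 14 rose and Adssl1 (-0.06) did not pass (median 0.57 relative to all genes). After cyclic loess scaling 12 rose and 1 fell. Mthfd1, which supplies the folate carbon units, was at 11.02 and 11.03 in the wild-type and 12.47 and 12.40 in the knockout (1.41 ± 0.05, adjusted p = 7.72e-07). Gart, a trifunctional enzyme of the ring-building steps, rose by 1.39, the phosphoribosyl pyrophosphate synthetase gene Prps2 by 1.25 and Adsl by 1.06. Ppat, which commits the substrate to the pathway, rose by 0.53 and Paics by 0.44. The trap line, also HPRT -/-, had a raw median of 0.15 against the wild-type and the exon 2 mutant, with Hprt intact, 0.41, beside 0.73 in the knockout. By this median the trap line lay above the wild-type and below the exon 2 mutant, both with intact Hprt. The part of Hprt in this order was not tested. Of 21 salvage and breakdown genes 8 rose and 7 fell (median -0.08), and 5 rose and 9 fell after cyclic loess scaling. The guanine deaminase gene Gda fell by 3.92, from 9.18 and 9.17 to 5.17 and 5.34, xanthine dehydrogenase (Xdh) by 3.43 and the surface nucleotidase gene Nt5e by 2.02. In the knockout 3 of these 21 genes were below the filter level, Gda among them, so its fold depends on the array background. Gda and Xdh were both at their lowest in the knockout and highest in the trap line. Adk and Dguok rose by 0.90 each, and Aprt, the adenine counterpart of Hprt, by 0.23.

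Proliferation genes were slightly higher. Of 34 replication and mitosis genes 33 rose and Ccne2 (-0.27) did not pass (median 0.42), with Cenpe (1.02), Bub1 (0.98), Bub1b (0.91) and Aurkb (0.89) at the top. After cyclic loess scaling 30 rose and 1 fell. Their raw median against the wild-type was 0.58 in the knockout, 0.01 in the trap line and 0.47 in the exon 2 mutant. D-type cyclins and inhibitors of the G1 phase went the other way in 8 of 15 cases, with 5 rising (median -0.68). Ccnd2 fell from 12.66 on both arrays to 8.91 and 9.01 (-3.70 ± 0.05), and the inhibitor genes Cdkn2a and Cdkn2b stood at -2.72 and -2.03 and Ccnd1 at -1.58, while Cdkn1c rose by 1.12 and Rb1 by 1.03. Of 18 p53 target genes 11 rose and 4 fell (median 0.08), beside 46.4% higher and 25.1% lower over all genes. After cyclic loess scaling 7 p53 target genes rose and 5 fell. Fas stood at -3.05, Cdkn1a at -1.19 and Bbc3 at 1.10.

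Of 32 amino acid stress genes tested 24 were higher in the knockout and 5 lower (median 0.41). Chac1, which degrades glutathione, was at 7.18 and 7.42 in the wild-type and 10.47 and 10.45 in the knockout (3.16 ± 0.08, adjusted p = 1.02e-07). The pseudokinase gene Trib3 rose by 2.71, Stc2 by 2.17, Ddit4 by 1.85 and Ddit3, the pro-apoptotic factor CHOP, by 1.68. Asns, the asparagine synthetase gene, stood at 0.05 (adjusted p = 0.38). Nupr1, another stress-induced gene, fell by 2.56, and Cebpb by 1.48. Against the exon 2 mutant 6 of these genes were higher in the knockout and 12 lower, and against the trap line 26 were higher and 5 lower. The wild-type and trap lines were therefore the low ones for this list. The transcription factor ATF4 acts on an element with the core TGATGNAA. The same 250 upstream bases held it on either strand in 8 of 31 promoters of the list (25.8%), which belong to 26 matched genes, against 3.45% of 32851 promoters. The following windows show it, in capitals (TTNCATCA on the opposite strand), in 1 gene that rose strongly, 1 that rose less, 1 that did not pass and 1 that fell.
Chac1, chr2:119351019-119351086, plus strand: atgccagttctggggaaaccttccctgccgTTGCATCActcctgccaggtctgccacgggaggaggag
Aars, chr8:111033700-111033767, plus strand: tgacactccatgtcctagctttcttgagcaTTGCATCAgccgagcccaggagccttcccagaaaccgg
Asns, chr6:7693210-7693262, minus strand: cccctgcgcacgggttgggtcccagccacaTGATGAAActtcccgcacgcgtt
Nupr1, chr7:126625543-126625610, minus strand: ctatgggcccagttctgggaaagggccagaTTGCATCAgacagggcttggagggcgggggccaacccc
Aars, an alanine tRNA synthetase gene, rose by 0.66. Chaperone genes of the endoplasmic reticulum did not rise with this list: of 24 tested, 5 rose and 12 fell (median -0.31), or 3 rose without knockout replicate 1, without wild-type replicate 1 or after cyclic loess scaling, with Sel1l at -1.01, Dnajc3 at -0.89 and Hspa5 at -0.27.

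Immediate early genes, which respond to growth factors within minutes, fell in 18 of 28 cases and rose in 4 (median -1.36). Fosl2 fell by 5.36, Egr2 by 4.21, Ier3 by 4.01 and Egr1 by 3.24, and Atf3 rose by 1.06. Egr2 was at 8.80 and 8.94 in the wild-type, 4.88 and 4.44 in the knockout, 4.77 and 4.97 in the trap line and 4.89 and 4.84 in the exon 2 mutant, so the wild-type arrays were the high ones among the 4 lines. Egr2 was below the filter level in every line but the wild-type and entered the test through the wild-type arrays alone, which favours its call. The serum response factor gene Srf had the same order, at 10.02 and 10.04 in the wild-type and at 8.04 to 8.29 on the other 6 arrays. Ccn2, a target of Srf and YAP, was at 14.40 on both wild-type arrays against 11.08 and 10.97 in the knockout and 10.65 and 10.72 in the trap line. For this list the knockout differed from the other mutant lines in both directions, with 7 genes higher and 12 lower against the trap line and 11 higher and 12 lower against the exon 2 mutant.

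Of 29 glycolysis and hypoxia genes 7 rose and 17 fell (median -0.54). The number that rose was 3 after cyclic loess scaling and 4 without knockout replicate 2, wild-type replicate 1 or wild-type replicate 2. The list held the vasodilator gene Adm at -3.69, Vegfa at -1.91, the collagen prolyl hydroxylase gene P4ha1 at -1.85 and the glucose transporter gene Slc2a1 at 0.98. Of 18 cholesterol synthesis genes 11 rose and 2 fell (median 0.14), but 7 rose and 6 fell after cyclic loess scaling. The background for this and the next list was 46.4% higher and 25.1% lower over all genes. Of 22 imprinted genes 11 rose and 10 fell, among them Dcn (-6.27) and the growth factor gene Igf2 (-4.55), which fibroblasts also express, and Nnat (1.95), Phlda2 (1.78) and Peg10 (1.51), which rose. Of 19 cytosolic ribosomal protein genes 6 rose and none fell, whereas after cyclic loess scaling none rose and 4 fell, so these genes have no direction here. Xist, the RNA that coats the inactive X chromosome, was at 11.91 and 11.82 in the wild-type and 8.82 and 8.89 in the knockout (-3.01 ± 0.06), at 10.57 and 10.64 in the trap line and at 11.85 and 11.78 in the exon 2 mutant. Of 10 sex-linked genes tested 4 rose, 2 fell and 4 did not pass, and 4 fell after cyclic loess scaling. Of the Y-linked genes Uty rose by 1.36, Eif2s3y by 0.55 and Kdm5d by 0.33, and Sry fell by 0.29. Feeder markers were likewise lowest in the knockout, and their part in these values was not tested.

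Markers of other cell types gave no common direction. Of 14 macrophage genes on the array 7 were tested, of which Lyz2 (-3.34), Cd14 (-1.62), Adgre1 (-0.60) and Fcgr3 (-0.28) fell and Cd68 (1.40) and Laptm5 (1.25) rose, and Csf1r (-0.17) did not pass. The other 7, among them Ptprc, Tyrobp, Itgam and the complement genes C1qa, C1qb and C1qc, did not exceed the filter. Of 9 tested endothelial genes 5 rose and 3 fell, of 7 skeletal muscle genes 2 rose and 2 fell, and of 4 neural crest and glial genes 1 rose and 2 fell. The background over all genes was 46.4% higher and 25.1% lower.

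The trap line and the exon 2 mutant were set beside the knockout against the same wild-type arrays. These comparisons share arrays, so their values are given side by side without a test of their likeness. The feeder markers had raw medians against the wild-type of -4.70 in the knockout, -0.18 in the trap line and -0.54 in the exon 2 mutant, and primed epiblast genes of 1.13, 0.25 and 0.32.

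**Figure D5:**
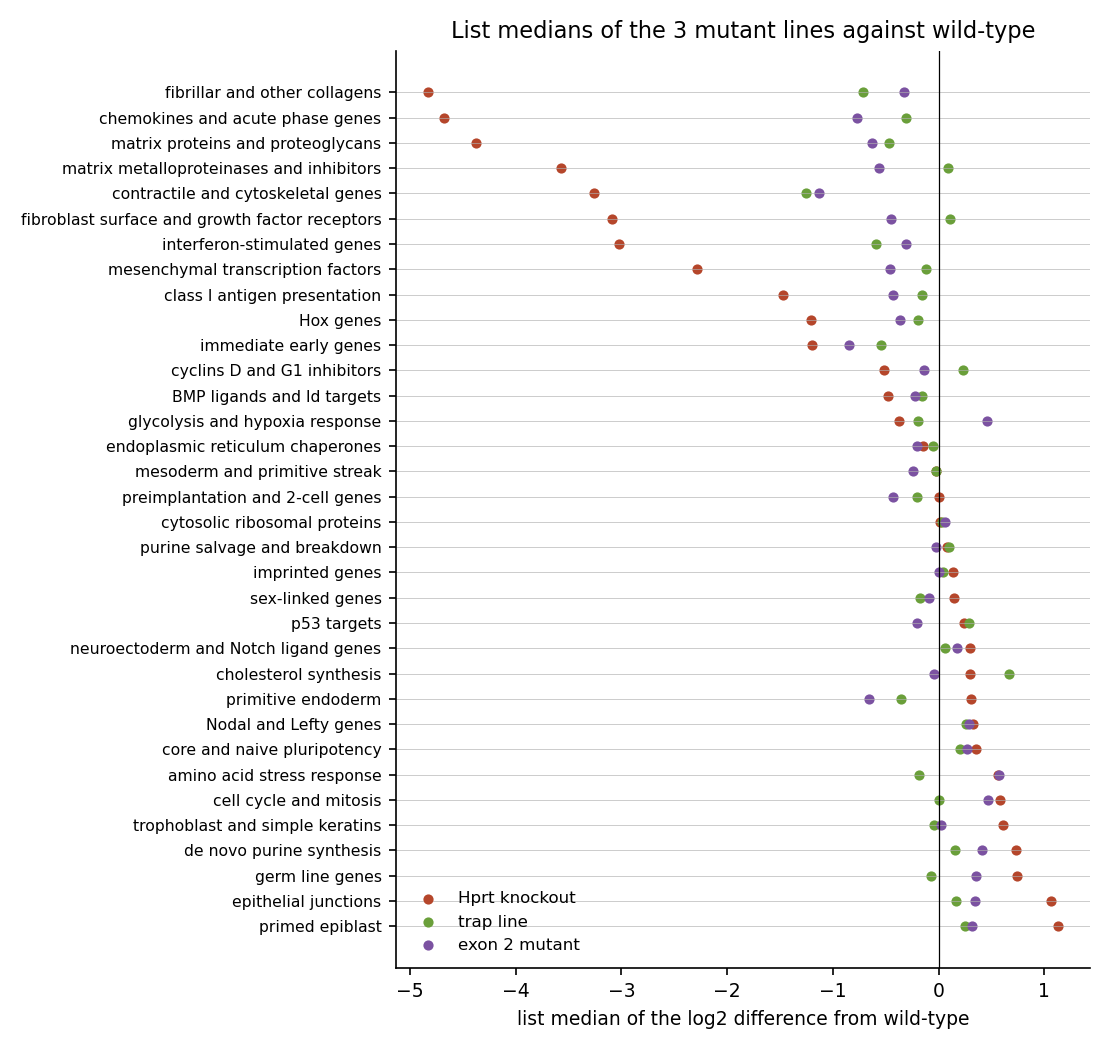
Raw list medians (x axis) of the log2 difference of the knockout, the trap line and the exon 2 mutant from the wild-type, for each fibroblast-side, stem-side and process list; the wild-type arrays are shared by all 3. The knockout lies far left of the other lines for the fibroblast-side lists, as at -4.83 against -0.72 and -0.33 for collagens, and the lines lie close together for core and naive pluripotency, at 0.36, 0.20 and 0.27.

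A second pair of an Hprt-mutant and an Hprt-intact line can be formed from the trap line and the exon 2 mutant, which share no array with the first pair but differ in their Gtf2i mutations and parental lines too. The difference in the first pair exceeded that in the second, by an interaction contrast in the same limma fit, for 5889 genes (42.6%) and was below it for 3737 (27%). Of the 9876 genes called in the first pair and 6798 (49.2%) called in the second, 5621 were called in both, of which 995 were higher in both mutant lines, 393 lower in both and 4233 went in opposite directions. At 2-fold or more the second pair had 296 genes higher (2.14%) and 257 lower (1.86%). At this size 23 genes were higher in both mutant lines and 23 lower in both, and 257 went in opposite directions. Each mutant line was set against the intact line of its own pair. The genes that went the same way were 1.73% of the 2660 genes past 2-fold in the first pair and 8.32% of the 553 in the second. Of the second pair's higher genes 7.77% were also higher in the first, beside 8.4% over all genes, and of its lower genes 8.95%, beside 10.8%. The number of genes that went the same way was therefore near or below the background. The 257 of 553 that went opposite ways were far above these shares, and why was not tested. Hprt was among the genes that went the same way, at -2.05 and -1.51. The following genes were picked after their values had been seen and are given as values only. Xist was at -3.01 and -1.21, Cnn1 at -4.32 and -1.13 and Vegfa at -1.91 and -1.05. Neat1, a nuclear long noncoding RNA, was at -1.05 and -1.10. Among the genes higher in both, the carbonyl reductase gene Cbr3 was at 2.93 and 1.77, Crmp1 at 2.38 and 1.00, Krt8 at 2.36 and 1.22, Fbp1 at 2.34 and 1.42 and the glutathione peroxidase gene Gpx2 at 1.64 and 1.84. Krt8 was at 7.33 and 7.35 in the trap line, below the wild-type at 7.75 and 7.89. It was higher there only against the exon 2 mutant, at 6.39 and 5.86. Cbr3 read 9.40 and 9.33 in the wild-type, 12.26 and 12.33 in the knockout, 10.87 and 10.86 in the trap line and 9.05 and 9.13 in the exon 2 mutant, so both mutant lines lay above both intact lines.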

How the data were processed

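The authors deposited 1 table of log2 expression values for 8 Affymetrix arrays, which the submitters' processing notes credit to RMA. This method corrects background, normalises quantiles between arrays and summarises probes, so a shift common to most genes cannot be seen. Versions are not given in the sources used here. Depth does not apply to arrays; the number of arrays limits the precision. Of 45101 probe sets 64 are controls, and GEO's platform annotation gives 34945 a single symbol, 932 several and 9160 none; 34741 matched RefSeq by Entrez ID. Genes with 1 symbol were reduced to 1 probe set, filtered, and fitted in limma 3.58.1 (R 4.3.3) with 4 group means over 8 arrays, which leaves 4 residual degrees of freedom (6.86 after moderation). Tests were two-sided with p-values adjusted over 13819 genes and a threshold of 0.05; an exact permutation of 2 against 2 arrays cannot go below 0.333. Values with ± are standard errors of the main fit, which leave out the choice of probe set and of scaling. The fit was also run on simulated data with far fewer changed genes than were called here, so that run does not test these calls.

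Genes were named by rule: Hprt and Gtf2i, the 15 largest rises and falls without overlap between arrays (clone and predicted names left out), the 6 largest called members of each of 38 lists, and the marker genes; further list members are named as members. The comparison, the lists and the members were chosen with earlier results of these data known. Figures were drawn with matplotlib 3.10.9. Alternatives were another scaling, other filters, other probe set rules, another variance model, leaving out each array and a replicate block. The replicate numbers share no stated source, and the differences between replicates of knockout and wild-type correlated at -0.16. Over the 6 pairs of lines this value ran from -0.28 to 0.17. It cannot show whether the numbers share a batch, and the main fit did not pair the arrays.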

Additional observations from a re-analysis of the deposited data

Results flagged for a closer look

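The difference between knockout and wild-type was set against that between the trap line and the exon 2 mutant, the other pair of an Hprt-mutant and an Hprt-intact line, by the interaction contrast of the limma fit, n = 2 arrays per line. It was above the second pair's difference for 5889 genes and below it for 3737. For Hprt itself the contrast was -0.54, the fall being -2.05 in the first pair and -1.51 in the second, and for Gtf2i it was 1.18. Among the largest falls it was -9.20 for Cxcl5, -7.40 for Il6 and -8.21 for Mmp13, and among the largest rises 4.34 for Neurod1, 4.88 for Dll1 and 2.58 for Cyyr1. The 4 lines differ in Gtf2i genotype as well as in Hprt, and the parental lines of the knockout and the wild-type are not named. Whether Hprt, Gtf2i or the parental line goes with the contrast cannot be told apart.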

How the results depend on the processing

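Cyclic loess scaling changed the balance of calls most, with 4709 genes higher and 4729 lower (49.9% higher against 64.9%) and 731 genes at least 2-fold higher in place of 1161. The other counts of called genes stayed within 1.5 times the main count in the alternatives run: 9077 to 9198 genes were called with 1 array left out, and 9620 with the replicate block. A block with crossed replicate numbers, chosen after seeing the data, gave 9685 calls. Of 257 named genes 242 kept their direction and call in every setting that gave a value. The exceptions were Actc1, Eif2s3x, Esrrb, Fcgr3, Nanog, Rpl19, Rpl8, Rplp0, Rps19, Rps3, Rps9, Sox10, Tfcp2l1 and Tnnc1, which lost the call in 1 or more settings, and Klf4, which the main fit did not call. Rps3 turned to -0.16 with the probe set of largest spread, and Rps9 to -0.28 with it and to -0.0001 with the mean of probe sets. For all of these the cause was not tested. Genes near the filter level have folds limited by array background, 2 arrays per line limit the precision, and line, culture and genotype cannot be told apart.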
